A study of Mus musculus with 18 samples.

Results

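The 37 rows of the expression table whose symbols begin with Nduf, one of the letters a, b, c, s or v, and a number were taken as the genes of mitochondrial complex I, out of 24419 symbols in all. Of these, 35 encode subunits of complex I and 2 do not belong to it in the strict sense: Ndufa4, whose product is now placed in complex IV, and its paralogue Ndufa4l2, a gene known to be induced by hypoxia. All 37 passed the filter on low values, as did 13333 of the 24419 symbols. RNA was sequenced from hearts of male C57BL/6 mice, 8 weeks old, which were anaesthetised with sodium pentobarbital (50 mg/kg) and had acute myocardial infarction (AMI) made by tying off the left anterior descending coronary artery near its origin. Infarcted tissue was taken at 10 min, 1 h, 6 h, 24 h and 72 h, 3 mice each, beside 3 control mice, the sham group, so that each of the 18 mice belongs to 1 time only.

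Complex I (NADH:ubiquinone oxidoreductase) is the entry point of electrons from NADH into the respiratory chain of the inner mitochondrial membrane. It has the shape of an L: the N module oxidises NADH, the Q module hands the electrons to ubiquinone, and the membrane arm, with a proximal and a distal part, pumps protons. Core subunits, conserved from bacteria, carry the flavin and the iron-sulfur clusters or form the pump, and accessory subunits surround them. Heart muscle is among the tissues richest in this complex, because the contracting cardiomyocyte depends on oxidative phosphorylation, and both ischaemia and reperfusion are known to act on it. By these textbook assignments the 35 subunits fell into 10 genes of the N module, 6 of the Q module, 9 of the proximal and 10 of the distal membrane arm, and 7 of the 35 were core subunits. The core subunits that mitochondrial DNA encodes, and Ndufb1, were not analysed here.

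Levels are given as FPKM, fragments per kilobase of transcript, scaled to the mapped fragments of the library, which are per length and can be set side by side between genes. FPKM summed to between 542418 and 600467 per mouse. The table holds no read counts, and ratios of the lowest FPKM gave a depth between 0.815 and 1.31 times that of the first sham mouse, highest at 72 h. Changes are log2 ratios (log2FC): a group mean of log2(FPKM + 1) minus another, given ± the standard error (SE). A gene is called lower or higher where the Benjamini-Hochberg adjusted p of limma, over all genes tested and two-sided, was under 0.05. The 5 comparisons with sham share the 3 sham mice. The sham hearts held the markers of cardiomyocytes at high levels, with 60658 to 64201 FPKM summed over 10 genes. The summed FPKM of 10 leukocyte markers was 68.8 to 92.9 in sham mice, 92.6 to 285 at 6 h, 369 to 814 at 24 h and 1397 to 1557 at 72 h.

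In the sham heart the genes of complex I covered a wide range of levels. Ndufa4 (2136 ± 106 FPKM, SD, n = 3) and Ndufb8, an accessory subunit of the distal membrane arm (2036 ± 61.1), were the highest. Ndufa13, Ndufb10 and Ndufb11 followed at 1859 ± 99.3, 1708 ± 44.8 and 1504 ± 73.7 FPKM. The first pair of neighbours, Ndufa4 and Ndufb8, overlapped between mice. At the other end stood Ndufs5 (15.3 ± 1.29 FPKM), Ndufv3 (15.6 ± 1.27), the core subunit Ndufv2 (27.4 ± 1.03) and Ndufa4l2 (48.5 ± 4.18). Ndufa13, Ndufb11 and Ndufv3 are named for their levels, after these were seen. Sham mice differed little among themselves, with a median coefficient of variation of 3.75% over the 37 genes, against 15.2% at 24 h and 16.7% at 72 h. The 35 subunits together held 4.29% ± 0.0748 of all FPKM in the sham group.

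The low value of Ndufs5 is uncertain. BC002163, a near-identical copy of it elsewhere in the genome, was listed at 243 ± 6.65 FPKM in sham mice, 178 ± 28.3 at 24 h and 106 ± 16.9 at 72 h. Ndufs5 made up 5.93% ± 0.443 of the sum of both in sham mice and 6.87% ± 1.14 at 72 h, and the sum went from 258 ± 7.18 to 114 ± 16.7 FPKM. By the GENCODE M21 annotation of mm10, 11 of the 37 genes share at least 200 bases with another gene at 95% identity or more, and 16 share exonic bases with an overlapping gene. These counts overlap: for Ndufa13, Ndufb5, Ndufb6 and Ndufb9 the near-identical gene was the overlapping gene itself. Ndufs6, described below, is among the 11, with Ndufs6b. Ndufs1 shares 489 exonic bases with Ino80dos on the other strand. The library kit named in the labels does not mark strand, so reads of such stretches could not be told apart. The genes described most lie, by the same annotation, at chr1:92439010-92473860 (Ndufa10, minus strand), chr19:4007384-4012806 (Ndufv1, minus), chr13:73319838-73328542 (Ndufs6, minus), chr19:44548572-44555440 (Ndufb8, minus), chr7:97400003-97407802 (Ndufc2, plus) and chr10:127514967-127517154 (Ndufa4l2, plus).

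**Figure D1:**
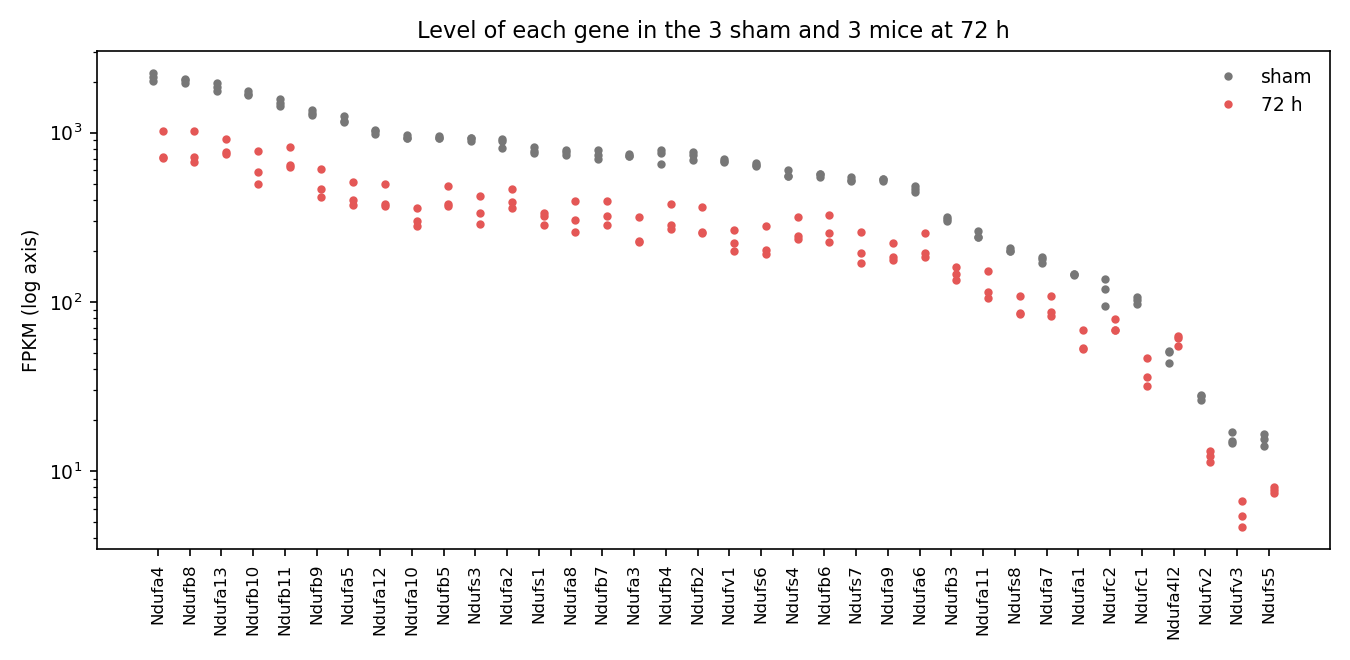
FPKM (log axis) of 36 of the 37 genes in each of the 3 sham mice (grey) and the 3 mice at 72 h (red), ordered by the sham mean. From Ndufa4 at 2136 FPKM to Ndufs5 at 15.3 FPKM, the 72 h mice lay below the sham mice for each gene shown except Ndufa4l2, for which, in FPKM as deposited, they lay above.

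At 10 min and at 1 h no gene of the 37 was called in either direction, while 0.0978% of all genes tested were called lower at 10 min and 0.0526% at 1 h, and 0.248% and 0.669% higher. By an unadjusted p under 0.05, limma had 3 of the 37 lower at 10 min and 16 lower at 1 h, and 0 higher at either time. At that threshold 6% and 7.06% of all genes tested were lower, and 8.7% and 5.52% higher. The median log2FC of the 37 genes was -0.06 at 10 min and -0.11 at 1 h, against 0.02 and -0.02 over all genes tested. All 3 AMI mice lay below all 3 sham mice for 6 of the 37 at 10 min and for 16 at 1 h, where 8.13% and 10.9% of all genes did.

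Ndufb8 had 2091, 2047 and 1970.5 FPKM in the sham mice, 2059.6, 1907 and 1898 at 10 min, and 1816, 1928 and 1988 at 1 h. The first 10 min mouse and the third 1 h mouse lay within the range of the sham mice, so that the groups overlapped at both times. Its log2FC was -0.06 at 10 min (SE 0.06, adjusted p = 0.687) and -0.09 at 1 h (SE 0.05, adjusted p = 0.498). Ndufs8, a core subunit of the Q module that holds iron-sulfur clusters, had 207, 199 and 199 FPKM in the sham mice and 176, 182 and 186 at 1 h. These groups did not overlap, and the difference was not called (log2FC -0.15 ± 0.04 SE, adjusted p = 0.244).

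At 6 h 2 of the 37 were called lower, where 16.8% of all genes tested were, and 0 higher, where 11.6% were (limma, with 3 lower and 0 higher at an unadjusted p under 0.05, beside 26.1% and 16.4%). The median log2FC of the 37 was -0.10, with -0.08 over all genes tested. It was 0.0024 with median-of-ratios scaling, so that even its direction depended on the scaling, -0.046 with the first 6 h mouse left out and -0.15 with the second left out. Ndufv2, the core subunit that carries an iron-sulfur cluster beside the flavin of Ndufv1, had 27.9, 26.2 and 28.0 FPKM in the sham mice and 21.1, 23.0 and 23.9 at 6 h. All 6 h mice lay below the sham mice (log2FC -0.26 ± 0.08 SE, adjusted p = 0.0451). Over the alternatives tried its adjusted p ran from 0.0325 to 0.155, and the call was lost with 5 of the 6 mice left out in turn, among them each sham mouse, with median-of-ratios scaling, with quantile normalization, with the replicate number as a block and with no variance trend.

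The second call at 6 h was Ndufa4l2, with 43.7, 50.2 and 51.6 FPKM in the sham mice and 35.5, 34.4 and 34.2 at 6 h. The 6 h mice were close to each other and all below the sham mice (log2FC -0.47 ± 0.08 SE, adjusted p = 0.00800, and from 0.00707 to 0.0429 over the alternatives tried). The 6 h mice differed among themselves in the subunits: the median of the 35 genes stood at 85.0%, 103% and 94.0% of the sham mean in mice 1, 2 and 3. The first of them also had the highest leukocyte marker sum at 6 h (285, against 92.6 and 158 FPKM). Without this mouse 1 gene of the 37 was called lower and without the second 3, and the part of the leukocytes in the result was not tested.

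At 24 h 31 of the 37 genes were called lower, beside 11.4% of all genes tested, and 0 higher, beside 26.2% (limma, with 35 lower and 0 higher at an unadjusted p under 0.05, beside 16% and 34.3%). The median log2FC was -0.48, while that of all genes was 0.13. All AMI mice lay below all sham mice for 35 of the 37, against 18.9% of all genes. The count of calls depended on the sham mice: it was 1 without the first or the second, 3 without the third, and 20 with no filter on low FPKM. Calls over all genes were also fewer without a sham mouse, with 366 to 468 genes lower in place of 1516. The median log2FC stayed between -0.58 and -0.36 with any 1 of the 6 mice left out. Over all genes 3496 were higher beside the 1516 lower, and with median-of-ratios scaling 2535 were higher and 2317 lower, while 35 of the 37 genes were then lower.

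The mice at 24 h formed no tight group. The median of the 35 subunits was 80.2%, 75.3% and 60.2% of the sham mean in mice 1, 2 and 3, and the third mouse had 814 FPKM of leukocyte markers against 369 and 394 in the others. Without it 29 genes were called lower, and without the second mouse 24, where 1441 and 1326 of all genes tested were. The leukocyte markers were higher than sham in 10 of 10 and the cardiomyocyte markers lower in 5 of 10 genes at this time, and the part of either in the result was not tested.

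**Figure D2:**
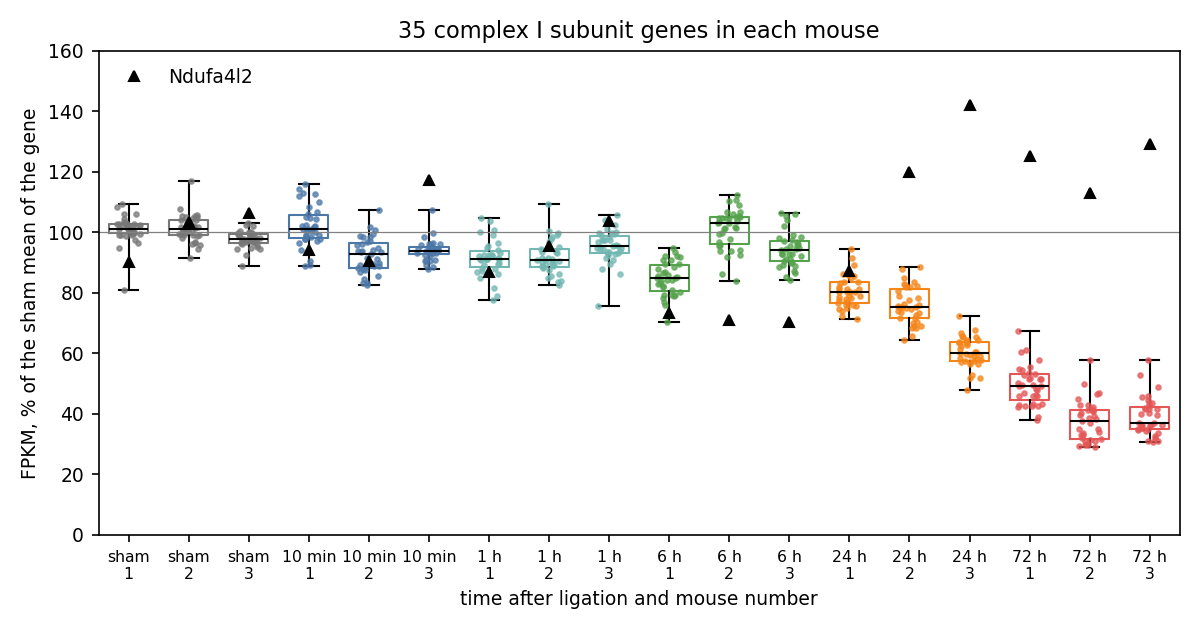
FPKM of each of the 35 complex I subunit genes (points) as a percentage of the sham mean of that gene, in each of the 18 mice. Boxes give the median and quartiles, whiskers the lowest and highest gene, and triangles Ndufa4l2. Medians ran from 97.7% to 101% in sham mice and from 36.9% to 49.3% at 72 h, with the third 24 h mouse at 60.2%.

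The largest fall at 24 h was that of Ndufb10, an accessory subunit of the distal arm, with 1757, 1698 and 1669.6 FPKM in the sham mice and 1236, 1266 and 817 at 24 h. The third 24 h mouse was far below the others, and no 24 h mouse reached the sham range (log2FC -0.65 ± 0.18 SE, adjusted p = 0.0281). Ndufa8 of the proximal arm and Ndufs8 of the Q module followed with log2FC values of -0.62 (SE 0.15, adjusted p = 0.0191) and -0.62 (SE 0.10, adjusted p = 0.00757). Ndufs8 had 144, 138 and 114 FPKM at 24 h, all far below its sham mice. Ndufa10 and Ndufa3, both of the proximal arm, had log2FC values of -0.60 and -0.59.

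Of the 6 genes not called at 24 h, 5 had a log2FC below 0. Ndufs1, the largest core subunit, had 743, 507 and 507 FPKM at 24 h against 758, 819 and 783 in the sham mice, so that the first 24 h mouse stood near the sham range (log2FC -0.45 ± 0.16 SE, adjusted p = 0.0631). Ndufb7, Ndufa2 and Ndufb6, named here after their values were seen, each stood at a log2FC of -0.36, and their adjusted p was 0.0647, 0.0774 and 0.0731. Ndufc2, of the proximal arm, had 107, 98.1 and 84.8 FPKM at 24 h and 94.9, 137 and 120 in the sham mice, which overlapped (log2FC -0.26 ± 0.15 SE, adjusted p = 0.203). Ndufa4l2 was the exception, with 42.2, 58.2 and 69.0 FPKM at 24 h and a log2FC of 0.19 (SE 0.18, adjusted p = 0.413).

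At 72 h 36 of the 37 genes were called lower than sham, all but Ndufa4l2, where 24.2% of all genes tested were lower and 53.1% higher. At an unadjusted p under 0.05 the counts were 36 and 1, beside 24.8% and 53.9%. The median log2FC was -1.29, with 0.29 over all genes, and the median level 41.1% of the sham mean. For the 36 genes every 72 h mouse lay below every sham mouse, as for 25.4% of all genes. Their adjusted p ran from 1.51e-06 to 0.00116. The count of 36 was the same with each of the 6 mice left out. Median-of-ratios scaling, which moved the median of all genes from 0.29 to 0.04, gave a median of -1.60 for the 37, and the split of all genes called went from 3226 lower and 7081 higher to 4752 and 5243. With quantile normalization 5787 of all genes were lower and 4278 higher.

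The core subunits that handle NADH showed the fall clearly. Ndufv1, which binds NADH and the flavin, had 682, 695 and 674 FPKM in the sham mice, 585, 513 and 457 at 24 h and 266, 200.4 and 223 at 72 h. The 3 groups did not overlap, and the log2FC at 72 h was -1.58 (SE 0.11, adjusted p = 2.00e-06). Ndufs1, which passes electrons on through its iron-sulfur clusters, had 336, 323 and 285 FPKM at 72 h (log2FC -1.32 ± 0.09 SE, adjusted p = 1.82e-06). Ndufv2 had 13.1, 12.3 and 11.4 FPKM (log2FC -1.10 ± 0.07 SE, adjusted p = 1.82e-06).

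Core subunits of the Q module carry electrons on to ubiquinone. Ndufs3 had a log2FC of -1.41 (SE 0.13, adjusted p = 1.65e-05) and Ndufs7 of -1.36 (SE 0.14, adjusted p = 3.03e-05). Ndufs8 fell less at 72 h, to 108, 86.4 and 84.5 FPKM (log2FC -1.12 ± 0.10 SE), after one of the largest falls at 24 h. The 7 core subunits were all called lower, with a median of -1.36.

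The largest fall at 72 h was that of Ndufa10, an accessory subunit of the membrane arm. It had 967, 936 and 926 FPKM in the sham mice, 717, 618 and 539 at 24 h and 359.6, 281 and 301 at 72 h, which is 33.3% of the sham mean. The 3 groups did not overlap, and the third 24 h mouse was again the lowest of its group. The log2FC was -1.59 (SE 0.10, adjusted p = 1.51e-06). Ndufs6, an accessory subunit of the N module that binds zinc, had 666, 642 and 638 FPKM in the sham mice and 281, 193 and 202 at 72 h, with the first 72 h mouse well above the others (log2FC -1.54 ± 0.14 SE, adjusted p = 1.05e-05). Ndufa3 of the proximal arm (-1.54 ± 0.13 SE, adjusted p = 7.74e-06) and Ndufa5 of the Q module (-1.49 ± 0.12 SE, adjusted p = 7.61e-06) completed the 5 largest falls with Ndufv1. Ndufb8 went to 1023, 670.0 and 722 FPKM (log2FC -1.36 ± 0.15 SE, adjusted p = 5.03e-05).

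The smallest fall was that of Ndufc2, with 78.8, 67.8 and 67.9 FPKM at 72 h. Its sham mice were the most variable of the 37 genes, with 94.9, 137 and 120 FPKM, but no 72 h mouse reached them (log2FC -0.69 ± 0.13 SE, adjusted p = 0.00116). The ratio of Ndufa10 to Ndufc2 in FPKM went from 8.25 ± 1.74 in the sham group to 6.45 ± 0.205 at 24 h and 4.38 ± 0.212 at 72 h, a direction that follows from choosing the largest and the smallest fall. Ndufs5 (-0.90 ± 0.08 SE) and Ndufa7, of the N module (-0.95 ± 0.10 SE), were the next smallest, the first with the limit given above. Across the 35 subunits, Ndufs5 among them, the change at 72 h was larger for genes of higher sham level (Spearman rho -0.43). The rho with exon length was -0.28. The genes share the same 6 mice and are not independent, and the 1 added to FPKM lessens the change most in the lowest genes.

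**Figure D3:**
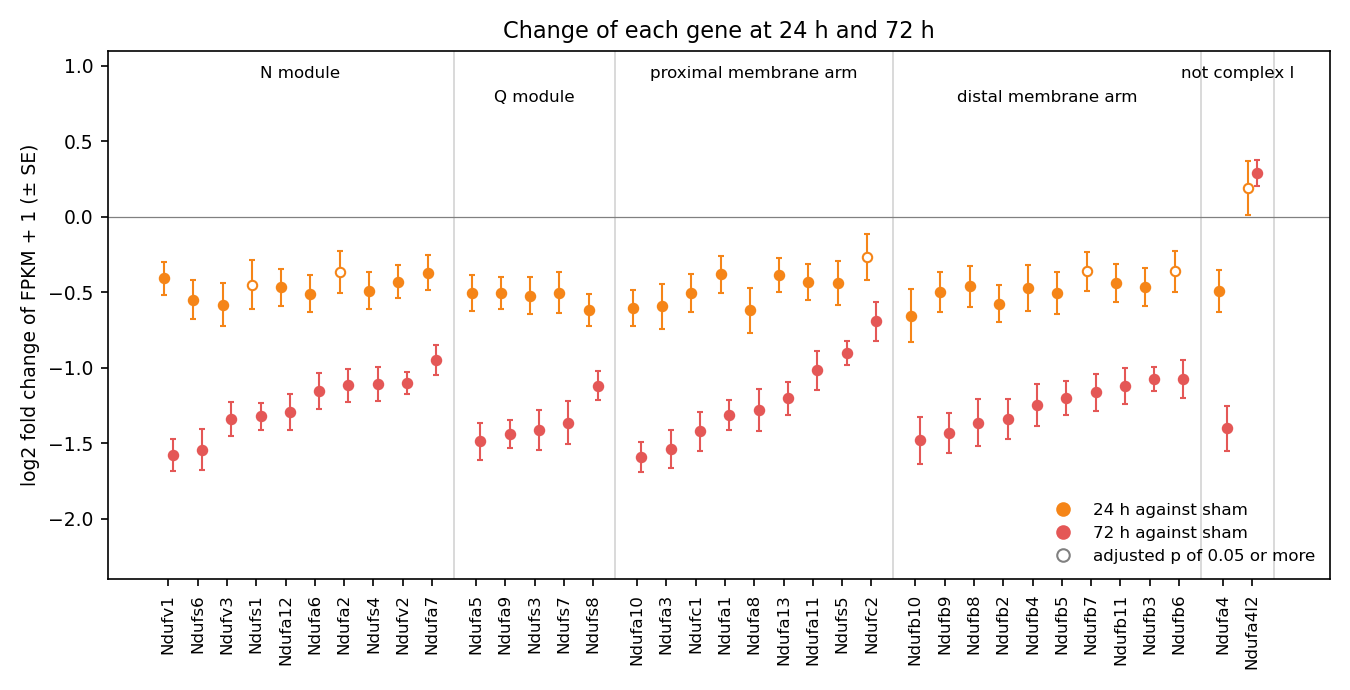
Log2FC of FPKM + 1 (± SE, limma) of 36 of the 37 genes at 24 h (orange) and 72 h (red) against sham, grouped by module and ordered by the 72 h value. Open circles have an adjusted p of 0.05 or more. At 72 h the subunits lay between -1.59 (Ndufa10) and -0.69 (Ndufc2), and Ndufa4l2 alone lay above 0, a direction that median-of-ratios scaling turned (-0.016).

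The fall touched every module. At 24 h 8 of 10 genes of the N module and 6 of 6 of the Q module were called lower. So were 8 of 9 of the proximal arm and 8 of 10 of the distal arm, beside 11.4% of all genes tested. At 72 h all of them were called lower, beside 24.2% of all genes tested. The 24 h calls depended on the sham mice, as given above. Over all modules and the genes outside complex I, 1 gene was called lower without the first or the second sham mouse, and 3 without the third. With quantile normalization 5 of the distal arm were lower at 24 h, where 2746 of 13327 genes tested were. Medians at 72 h were -1.22 for the N module, -1.42 for the Q module, -1.28 for the proximal and -1.22 for the distal arm, and the genes within each module spread more widely than these medians differed. Over the summed FPKM of the 35 subunits, the level was 25036 ± 582 in sham mice, 18011 ± 2639 at 24 h and 10164 ± 1718 at 72 h. Their share of all FPKM was 1.84% ± 0.284 at 72 h.

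Ndufa4 and Ndufa4l2 parted after the infarct. Ndufa4 had 2135, 2243 and 2032 FPKM in the sham mice, 1756, 1549 and 1288 at 24 h and 1028, 721 and 711 at 72 h, below the sham range at both times (log2FC at 72 h -1.40, SE 0.15, adjusted p = 3.30e-05). Ndufa4l2 had 60.8, 54.9 and 62.7 FPKM at 72 h, above each sham mouse (log2FC 0.29 ± 0.08 SE, adjusted p = 0.0122). This rise was of the size of the median of all genes, 0.29, and stood at percentile 50.0 of them. It was 0.12 with quantile normalization (adjusted p = 0.235) and -0.016 with median-of-ratios scaling (adjusted p = 0.869), so that its direction depended on the scaling. The level of Ndufa4l2 relative to Ndufa4 was 2.28% ± 0.246 in sham mice, 1.80% ± 0.199 at 6 h, 3.84% ± 1.48 at 24 h and 7.45% ± 1.46 at 72 h, a ratio within each mouse that rescaling a mouse does not change.

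Compared directly, 0 of the 37 genes were called lower at 24 h than at 6 h, where 1.94% of all genes were, and 19 were lower and 1 higher at an unadjusted p under 0.05 (limma), beside 6.21% and 30.2% of all genes. The count was 26 with all 18 mice in one fit, where 1002 of 13328 genes tested were lower. Ndufa4l2 was called higher at 24 h than at 6 h (log2FC 0.66 ± 0.18 SE, adjusted p = 0.0478), where 12.5% of all genes were higher. This call was lost with median-of-ratios scaling, with quantile normalization, with no filter, with the replicate block and with 5 of the 6 mice left out in turn. From 24 h to 72 h 36 genes were called lower, beside 13.5% of all genes, and 0 higher, beside 29.7% (limma, 36 lower and 0 higher at an unadjusted p under 0.05, beside 16.9% and 34.7%). Their median was -0.80, with 0.13 over all genes. Without the second 72 h mouse the count was 23 and without the third 22. Calls over all genes were also fewer then, with 1185 and 1037 genes lower in place of 1799. Ndufv1 fell most in this interval (log2FC -1.17), and Ndufc2 least (-0.43).

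At 24 h and 72 h the summed FPKM of complex I subunit genes fell together with that of cardiomyocyte markers. The summed FPKM of 10 cardiomyocyte markers (60658 to 64201 in sham mice) was 71.6% of the sham mean at 24 h (37568 to 48563) and 39.7% at 72 h (22853 to 28371), and all 10 were called lower at 72 h. With quantile normalization 3 of them were lower at 24 h in place of 5, and 8 at 72 h. The median log2FC of the markers was -0.60 at 24 h and -1.10 at 72 h, beside -0.48 and -1.29 for the 35 subunits. With quantile normalization the marker median was -0.34 at 24 h and -0.84 at 72 h. The complex I modules then stood at -0.47 to -0.61 and at -1.21 to -1.44. By these medians the subunits fell more than the markers at 72 h, and the order at 24 h depended on the scaling. The ratio of the summed subunits to these markers was 0.401 ± 0.00769 in sham mice, 0.402 ± 0.0137 at 24 h and 0.408 ± 0.0179 at 72 h, with overlapping ranges (0.392 to 0.407 in sham mice and 0.393 to 0.428 at 72 h). At 6 h the ratio was 0.420 to 0.429, above each sham mouse, and at 1 h 0.381 to 0.390, below each. In bulk tissue, fewer cells of a type and less RNA of a gene per cell cannot be told apart. At 72 h 10 of 10 leukocyte markers and 8 of 8 fibroblast markers were called higher. The fibroblast marker sum went from between 259 and 292 FPKM in sham mice to between 3823 and 4942 at 72 h. Of the other lists, 5 of 6 neutrophil markers were higher, 5 of 8 endothelial markers lower and 1 higher, and 2 of 5 erythroid markers lower, short lists to be read beside the 53.1% of all genes called higher and the 24.2% called lower. No marker of the cardiomyocyte, fibroblast, endothelial and leukocyte lists was at 0 in any mouse, and the part of these cells in the fall of complex I was not tested.

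**Figure D4:**
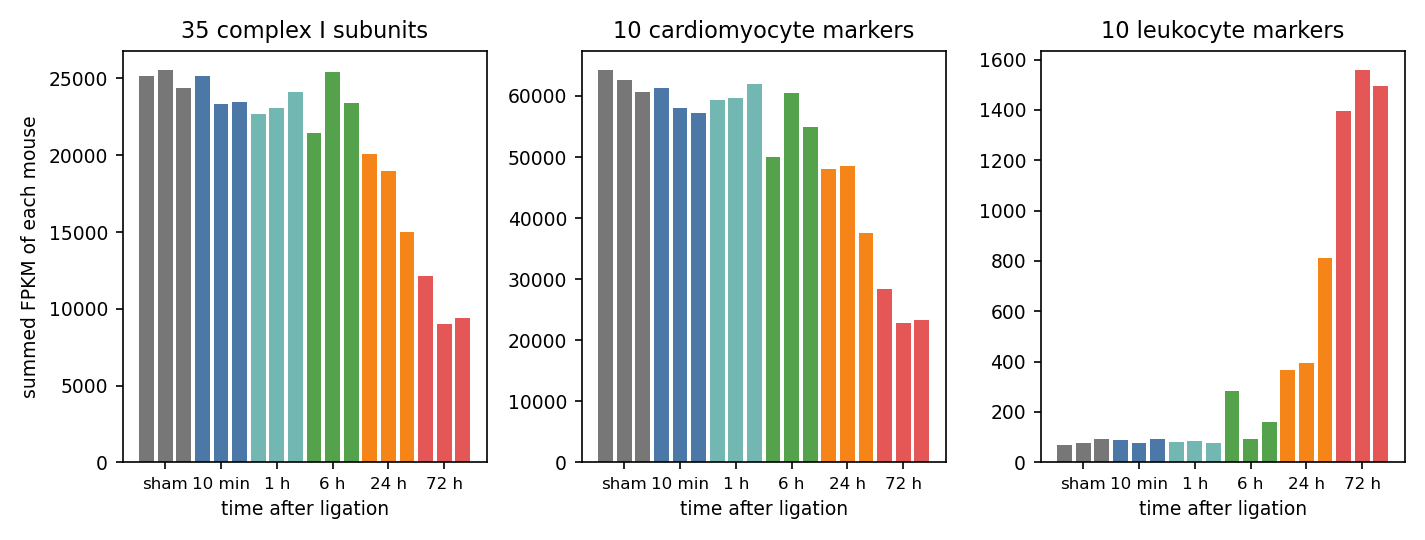
Summed FPKM of the 35 complex I subunit genes, of 10 cardiomyocyte markers and of 10 leukocyte markers in each mouse, 1 bar per mouse and 3 per time. The first and second sums fell to 40.6% and 39.7% of the sham mean at 72 h, while the leukocyte sum went from at most 92.9 in sham mice to at least 1397.

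The genes around complex I gave a mixed picture. Ndufab1, the mitochondrial acyl carrier protein that is also bound in complex I, fell with the subunits (log2FC -0.53 at 24 h and -1.44 at 72 h, SE 0.12 and 0.13, adjusted p = 0.0181 and 1.17e-05). Assembly factors, which build the complex and leave it, were called lower for 5 of 16 at 6 h, 7 at 24 h and 16 at 72 h. The shares of all genes called lower were 16.8%, 11.4% and 24.2%. Of the assembly factors 0 were called higher, and their medians were -0.27, -0.37 and -0.64. At 6 h the largest fall among them was that of Tmem126b, a factor for the membrane arm (log2FC -0.72 ± 0.17 SE, adjusted p = 0.0199). It had 19.0, 18.2 and 20.4 FPKM in the sham mice, 8.41, 11.7 and 14.2 at 6 h and 16.5, 16.3 and 15.7 at 72 h. Its log2FC at 72 h was -0.23, and this value depended on the scaling: median-of-ratios scaling put it at -0.52 and quantile normalization at -0.60, beside -0.63 and -0.68 at 6 h. Ecsit, a factor that also takes part in innate immune signalling, fell most at 72 h (log2FC -1.36 ± 0.10 SE, adjusted p = 3.83e-06), followed by Ndufaf6 (-1.05). With median-of-ratios scaling 2 assembly factors were lower at 6 h and 11 at 24 h, where 1513 of 13321 and 2317 of 13327 genes tested were. With quantile normalization 4 and 10 were lower, where 2147 and 2746 of all genes were. The median of the assembly factors at 72 h was -0.93 and -1.05 under these scalings.

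Other enzymes that reduce ubiquinone, among them complex II, were called lower for 0 of 11 genes at 6 h, 8 at 24 h and 10 at 72 h. The shares of all genes called lower were 16.8%, 11.4% and 24.2%. Among the 11 the median at 72 h was -1.40. Prodh, proline dehydrogenase, fell most (log2FC -1.79 ± 0.08 SE, adjusted p = 2.00e-07), and Etfb, a subunit of the electron transfer flavoprotein, next (-1.63 ± 0.15 SE). Gpd2, the mitochondrial glycerol-3-phosphate dehydrogenase and the 1 gene of the 11 not called, named after its values were seen, had 6.31, 6.32 and 7.07 FPKM in the sham mice and 6.57, 8.24 and 6.64 at 72 h (log2FC 0.10 ± 0.10 SE, adjusted p = 0.362). Its direction and call depended on the scaling, with -0.17 under median-of-ratios scaling (adjusted p = 0.114) and -0.36 under quantile normalization (adjusted p = 0.00769), where all 11 genes were lower.

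At 72 h 9 of 9 genes of complex III, 11 of 13 of complex IV and 15 of 15 of complex V were called lower, beside 24.2% of all genes. The medians of the 3 complexes were -1.34, -1.33 and -1.25, beside -1.29 for the 35 subunits of complex I. The largest falls were those of Uqcrc1 (-1.60) in complex III, Cox7a1 (-2.36) in complex IV and Atp5k (-1.81) in complex V. Cox6a1 of complex IV was higher (log2FC 0.52 ± 0.08 SE, adjusted p = 0.000344). The summed subunits of complex I relative to complex III were 2.31 to 2.32 in sham mice, 2.24 to 2.26 at 10 min and 2.16 to 2.27 at 24 h, both below each sham mouse, and 2.22 to 2.31 at 72 h, where the ranges met. Relative to complex IV they were 0.883 to 0.895 in sham mice, 0.870 to 0.888 at 24 h and 0.959 to 0.970 at 72 h. Earlier, this ratio lay just above each sham mouse at 1 h (0.896 to 0.924) and below each at 6 h (0.846 to 0.875). Relative to complex V the summed subunits were 2.87 to 2.92 in sham mice, 2.69 to 2.98 at 24 h and 2.47 to 2.63 at 72 h. At 10 min this ratio was 2.97 to 3.19, above each sham mouse, where that to complex III was below each. For complexes IV and V the ranges overlapped those of sham mice at 24 h and did not at 72 h.

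**Figure D5:**
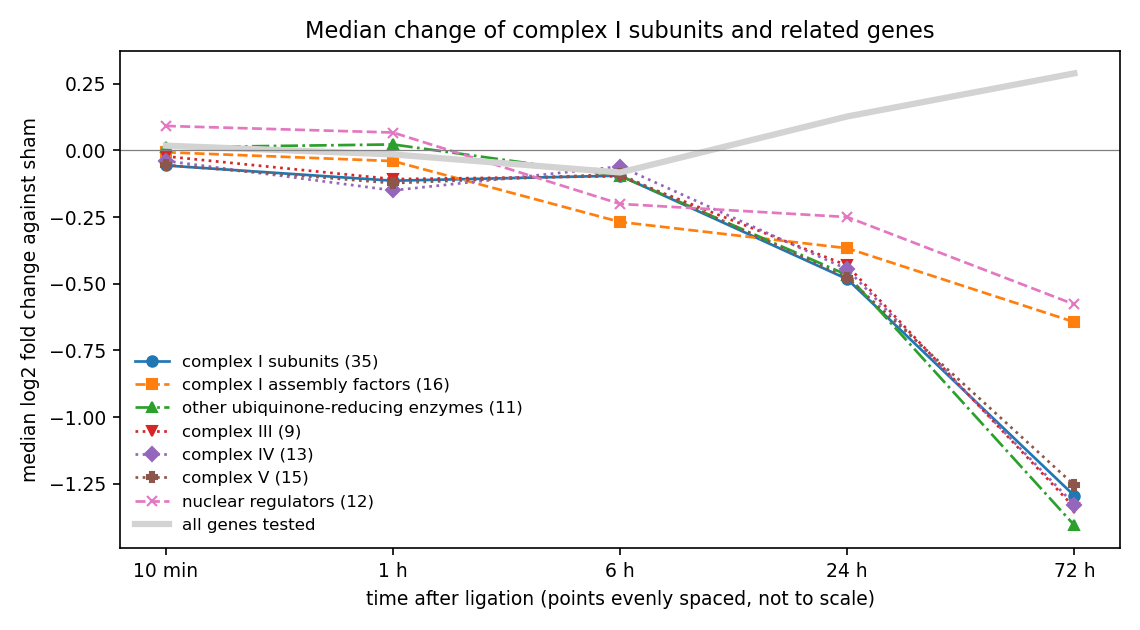
Median log2FC against sham of the 35 complex I subunits and of related lists at the 5 times after ligation (points evenly spaced, each list with its number of genes), with that of all genes tested in grey. At 72 h the subunits (-1.29) lay with complexes III, IV and V and the other ubiquinone-reducing enzymes (-1.40). The assembly factors (-0.64) and nuclear regulators (-0.58) lay above them, at a distance whose size depended on the scaling. With quantile normalization these 2 lists stood at -1.05 and -0.97, beside -1.21 to -1.44 for the complex I modules and -1.12 for complex IV. With median-of-ratios scaling they stood at -0.93 and -0.82, beside -1.53 to -1.73 for the modules.

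Among 12 nuclear regulators of mitochondrial genes, 5 were called lower at 6 h, 1 at 24 h and 7 at 72 h, beside 16.8%, 11.4% and 24.2% of all genes, and 3 were called higher at 72 h, beside 53.1%. Median-of-ratios scaling gave 2 lower and 2 higher at 6 h, where 1513 and 1977 of 13321 genes tested were. At 72 h it gave 9 lower and 2 higher, where 4752 and 5243 of 13329 were. Perm1, a muscle coactivator, was called lower at 6 h, a time at which 1 of the 35 subunits was. It had 116, 121 and 119.9 FPKM in the sham mice and 57.8, 62.2 and 65.6 at 6 h (log2FC -0.93 ± 0.07 SE, adjusted p = 0.000475), and its log2FC at 72 h was -1.73. Ppara, the receptor that drives fatty acid oxidation genes, was at -0.51 at 6 h (SE 0.14, adjusted p = 0.0332) and at -1.54 at 72 h (SE 0.09). Ppargc1b, a coactivator, was called higher at 1 h (log2FC 0.75 ± 0.11 SE, adjusted p = 0.0353). At 72 h Gabpb1 (0.53 ± 0.09 SE, adjusted p = 0.000718), Nrf1 (0.52 ± 0.07 SE, adjusted p = 0.000153) and Yy1 (0.29, adjusted p = 0.0127) were called higher. With quantile normalization none of these 3 was called, with log2FC values of -0.03 for Gabpb1, 0.08 for Nrf1 and -0.08 for Yy1. Median-of-ratios scaling kept the calls of Gabpb1 and Nrf1 and gave -0.0038 for Yy1.

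Nuclear genes of the respiratory chain are known as targets of the factors NRF1, YY1, GABPA (of the ETS family) and the oestrogen-related receptors, and since the subunits fell together, their promoters were read for the letters of these motifs. RefSeq promoter windows (GRCm38.p6, from 250 bases before to 50 after the start) matched 32 of the 37 genes, 31 of them subunits. A gene was counted once if any of its windows held the letters, on either strand. The letters of NRF1 (GCGCA, any base, then GCGC) stood in 7 of 31 subunit genes (22.6%). They stood in 5.19% of all genes with a window and in 11% of genes tested. The letters AAGATGGC of YY1 stood in 7 (22.6%) against 3.19% and 5.06%. All 7 of these YY1 matches began at bases 23 to 39 counted from the start, on the strand of the gene. CCGGAAG of the ETS family stood in 4 (12.9%), above the 9.93% of all genes and below the 19.2% of genes tested. AAGGTCA of the oestrogen-related receptors stood in 3 (9.68% against 5.38% and 3.81%). General promoter letters were read too: GGGCGG stood in 45.2% (38.2% of all genes and 68% of genes tested), CCAAT in 32.3% (41.1% and 42.6%) and TATAAA in 12.9% (15.7% and 9.07%), and no match was removed for overlapping another. The median log2FC at 72 h was -1.24 for the genes with the NRF1 letters and -1.30 for those without, and -1.42 with and -1.20 without the YY1 letters. These differences are smaller than the spread between genes, and a match of letters is a description of the window, not a site shown to be bound.

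The windows of Ndufs6, among the 5 largest falls, of Ndufb8, the most abundant subunit, and of Ndufc2, the smallest fall, are shown, with matches to the letters of these 4 factors in capitals. They lie at chr13:73328433-73328732 (minus strand), chr19:44555393-44555692 (minus strand) and chr7:97399753-97400052 (plus strand), and each is written 5′ to 3′ in the direction of the gene.
Ndufs6: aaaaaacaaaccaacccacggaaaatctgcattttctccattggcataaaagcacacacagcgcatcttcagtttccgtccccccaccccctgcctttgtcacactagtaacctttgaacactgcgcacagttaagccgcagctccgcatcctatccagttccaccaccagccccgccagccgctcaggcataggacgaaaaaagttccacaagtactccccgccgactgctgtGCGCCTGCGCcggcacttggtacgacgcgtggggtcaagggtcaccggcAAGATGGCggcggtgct
Ndufb8: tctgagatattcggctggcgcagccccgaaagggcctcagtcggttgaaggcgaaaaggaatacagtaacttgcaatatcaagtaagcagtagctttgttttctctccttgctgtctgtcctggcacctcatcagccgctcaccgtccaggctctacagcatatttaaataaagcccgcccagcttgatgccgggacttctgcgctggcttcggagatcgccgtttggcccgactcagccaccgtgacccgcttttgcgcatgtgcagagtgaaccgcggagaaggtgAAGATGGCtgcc
Ndufc2: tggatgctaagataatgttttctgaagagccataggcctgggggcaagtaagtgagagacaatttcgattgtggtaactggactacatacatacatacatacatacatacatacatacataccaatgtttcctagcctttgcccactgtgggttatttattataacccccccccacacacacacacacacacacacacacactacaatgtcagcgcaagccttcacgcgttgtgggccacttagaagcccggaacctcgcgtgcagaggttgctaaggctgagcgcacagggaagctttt
Ndufs6 holds the NRF1 letters and, close to the end of the window, the YY1 letters. Ndufb8 holds the YY1 letters close to the end of its window too, and Ndufc2 the letters of none of these 4 factors.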

How the data were processed

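RNA of 18 mouse hearts (3 per group) was sequenced as poly(A)-selected bulk libraries. Per the labels and the study's methods, the authors trimmed reads with cutadapt 1.18, aligned them to mm10 with HISAT2 2.1.0 and estimated transcript levels with StringTie 1.3.4d; Cufflinks and Cuffdiff are also listed, and the gene annotation is not given in the sources used here. The deposited values are FPKM per gene symbol, normalised to length and mapped fragments, so that a gene's value also depends on what all other genes do. The table holds no counts, so counting intervals could not be given.

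From these FPKM, log2(FPKM + 1) was compared between groups with limma 3.58.1 in R 4.3.3 (empirical Bayes with a variance trend), each comparison fitted on its own 6 mice. Genes needed 1 mouse of the 18 with an FPKM of 1 or more, and a value above 0 within the comparison. P-values are two-sided and Benjamini-Hochberg adjusted over all genes tested, and the threshold was 0.05. An exact permutation test of 3 mice against 3 cannot go below p = 0.1 and was not used. The members and lists of genes were chosen with earlier results of these data known. Named genes were the core subunits, the genes outside complex I, Ndufb8, and per comparison the 5 largest and 3 smallest changes in the direction of most calls. Of other lists the 2 largest changes in each direction could be named. Alternatives changed the pseudocount (0.1), filter, scaling, fit, membership, variance trend, replicate block and mice included. Positions came from GENCODE M21, near-identical stretches from BLAST+ 2.17.0 and promoters from RefSeq (GRCm38.p6). The tests were tried on simulated data, and Python 3.11.15 made the summaries. 1 gene of the 37 is counted in the totals, but its own values are not reported here.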

Additional observations from a re-analysis of the deposited data

Results flagged for a closer look

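A test of the difference between times singled out these results. For 36 genes of the 37 the change from sham differed between 72 h and 24 h (limma, adjusted over all genes), each lower at 72 h. Of all genes tested, 13.5% were lower and 29.7% higher. Between 24 h and 6 h it differed for 1 gene, Ndufa4l2, with a log2 fold change of 0.66 (SE 0.18, adjusted p = 0.0478), which was lower than sham at 6 h and stood around sham at 24 h. Its 3 mice at 24 h (42.2, 58.2 and 69.0 FPKM) all lay above those at 6 h (35.5, 34.4 and 34.2 FPKM). In this comparison 12.5% of all genes were called higher and 1.94% lower. The call of Ndufa4l2 was lost with median-of-ratios scaling, quantile normalization, no filter and the replicate block. It was also lost with 5 of the 6 mice left out in turn.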

How the results depend on the processing

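Numbers of genes lower at 72 h (36 with each mouse left out) and the direction of the medians at 24 h and 72 h were the same under each alternative run. Median-of-ratios scaling gave a median of -1.605 at 72 h and -0.61 between 24 h and 6 h. At 6 h 1 gene was lower with median-of-ratios scaling, with the replicate block, with no variance trend and with strict membership (subunits and Ndufab1), and 1 to 3 with a mouse left out. At 24 h 20 were lower with no filter, and 1 to 32 with a mouse left out, where 0 to 1 were higher (1 without the first 24 h mouse). At 72 h 0 were higher with strict membership, with all 18 mice in one fit, with quantile normalization and with median-of-ratios scaling, and Ndufa4l2 turned to -0.0163 with median-of-ratios scaling. Between 24 h and 6 h 1 was lower with a mean FPKM of at least 1, 4 with median-of-ratios scaling, 26 with all mice in one fit and 0 to 5 with a mouse left out (5 without the first 24 h mouse), and 0 were higher with no filter, median-of-ratios scaling, quantile normalization, the replicate block and strict membership, and 0 to 1 with a mouse left out. From 24 h to 72 h 22 to 36 were lower with a mouse left out. With the replicate block 28 were lower at 24 h, 36 at 72 h and 35 from 24 h to 72 h; same-numbered mice did not deviate together (lowest correlation -0.327 to 0.00888 by comparison), so the numbers were not taken to pair mice. Of the named genes' values, 2052 kept their call or lack of one, 28 gained a call, 124 lost one and 1 with a call turned direction. A change of direction without a call in either fit was counted among the 2052. Fewer genes tested or fewer mice made up the filter and left-out cases; the cause of the other changes was not tested. The table gives no counts, so the counting error behind each FPKM is not known.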
